A study of Homo sapiens with 6 samples.

Results

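FRG2, FRG2B, FRG2C, FOXD4L1, FOXD4L4, FOXD4L5, FOXD4L6 and F8A2 belong to 3 families of recently duplicated human genes, and their expression was compared in ES2 cells with and without knockdown of RUNX1-IT1. They were chosen by gene symbol, as 8 of the 1113 entries in the tables, of which 771 carried a symbol. ES2 is a human ovarian cancer cell line, labelled as epithelial ovarian cancer cells and grown in RPMI-1640 with 10% fetal bovine serum. RNA was sequenced from 3 samples labelled Control, which received a control ASO (antisense oligonucleotide), and from 3 labelled RUNX1-IT1 knockdown, which received an ASO against this long non-coding RNA. Libraries were mRNA-focused and made from total RNA. The labels state no dose, time or number of separate oligonucleotides, and do not say whether replicates were separate cultures, so p-values measure only the spread between these libraries, which may be technical.

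FRG2 lies beside the D4Z4 repeat array of chromosome 4 that is contracted in facioscapulohumeral muscular dystrophy, and its transcription is known to be switched on by DUX4, the homeobox factor encoded in that array. The function of the FRG2 protein is poorly known. FOXD4-like genes encode forkhead transcription factors that bind DNA through a winged-helix domain, and they spread with blocks of duplicated sequence over chromosome 9 and to chromosome 2. F8A genes encode HAP40, the partner protein of huntingtin. One copy sits inside an intron of the clotting factor gene F8, and recombination between the copies causes a common inversion in severe haemophilia A. Genes this alike share long stretches of sequence, so a short read may not show which copy it came from.

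The members lie on chromosomes 2, 3, 4, 9, 10 and X in GENCODE release 29 on GRCh38, the build named in the submitters' processing notes. FRG2 lies on the minus strand of chromosome 4 from 190024351 to 190027257, FRG2B on the minus strand of chromosome 10 from 133623895 to 133626795, and FRG2C on the plus strand of chromosome 3 from 75664330 to 75667220. Each of these has 4 exons in its longest coding transcript. FOXD4L1 lies on chromosome 2 from 113498665 to 113501155. On chromosome 9, FOXD4L6 lies from 41126430 to 41128463, FOXD4L5 from 65282101 to 65285209 and FOXD4L4 from 65736555 to 65738784. F8A2 lies on the plus strand of chromosome X from 155382115 to 155383230, overlaps the microRNA gene MIR1184-2, and stands 981 bases from the histone gene H2AFB2. The FOXD4L genes and F8A2 have 1 exon each. FOXD4L6 overlaps the pseudogene FRG1HP and FRG2C the pseudogene RPL23AP49, and whether the counting used strand is not given in the sources.

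The first 60 coding bases of FRG2 and FOXD4 family copies, from GENCODE release 29 transcripts, show how little separates them. Capitals mark the positions at which the annotated copies of a family differ. In the FRG2 family 2 of the 60 positions differ:
FRG2: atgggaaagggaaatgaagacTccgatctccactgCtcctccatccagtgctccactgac
FRG2B: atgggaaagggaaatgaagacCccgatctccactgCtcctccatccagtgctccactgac
FRG2C: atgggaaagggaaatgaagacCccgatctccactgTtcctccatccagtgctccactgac
In the FOXD4 family, FOXD4 and FOXD4L3 included, 2 of the 60 positions differ, and FOXD4L1, FOXD4L4 and FOXD4L5 are the same over this stretch:
FOXD4L4: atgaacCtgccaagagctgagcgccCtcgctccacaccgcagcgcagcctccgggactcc
FOXD4L6: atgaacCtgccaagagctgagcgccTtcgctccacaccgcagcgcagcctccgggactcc
FOXD4: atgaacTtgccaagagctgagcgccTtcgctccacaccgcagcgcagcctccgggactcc

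Over whole coding sequences, FRG2 and FRG2B differed at 5 of 837 aligned bases (99.4% identity), while FRG2C differed from FRG2 at 27 of 837 (96.8%). FOXD4L4 and FOXD4L5 differed at 6 of 1248 bases, and FOXD4L6 differed from FOXD4L3, which is no listed gene, at 2 of 1251. FOXD4L1 was the most distant FOXD4L member, with 98.3% identity to FOXD4L4 over the coding bases that align. The F8A2 coding sequence differed from those of F8A1 and F8A3 at 0 of 1113 bases.

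The share of each transcript that a read could not assign was described by cutting it into all its windows of 100 bases and asking which occur letter for letter in a transcript of another gene. All 1017 windows of F8A2 (100%) occurred in both F8A1 and F8A3. For FRG2 the share was 74.8%, and for FRG2B 74.99%, nearly all through each other. For FRG2C it was 0.202%, or 4 of 1979 windows, all in the pseudogene FRG2EP. FOXD4L6 shared 89.8% of its windows, mostly with FOXD4L3. FOXD4L4 shared 74.4% and FOXD4L5 49.3%, mostly with each other, and FOXD4L1 shared 23.2%. With windows of 150 bases these shares were 66.4% for FRG2, 66.6% for FRG2B, 82.1% for FOXD4L6, 59.0% for FOXD4L4, 39.8% for FOXD4L5, 7.60% for FOXD4L1 and 100% for F8A2, counted within the families. With windows of 50 bases, also within the families, FOXD4L1 shared 58.3% and FRG2C 13.6%. At each of these lengths FRG2C shared the least and F8A2 shared every window, while for FOXD4L1 the share depended strongly on the length. Read length, aligner and the treatment of reads with several matches: none is given in the sources used here.

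**Figure D1:**
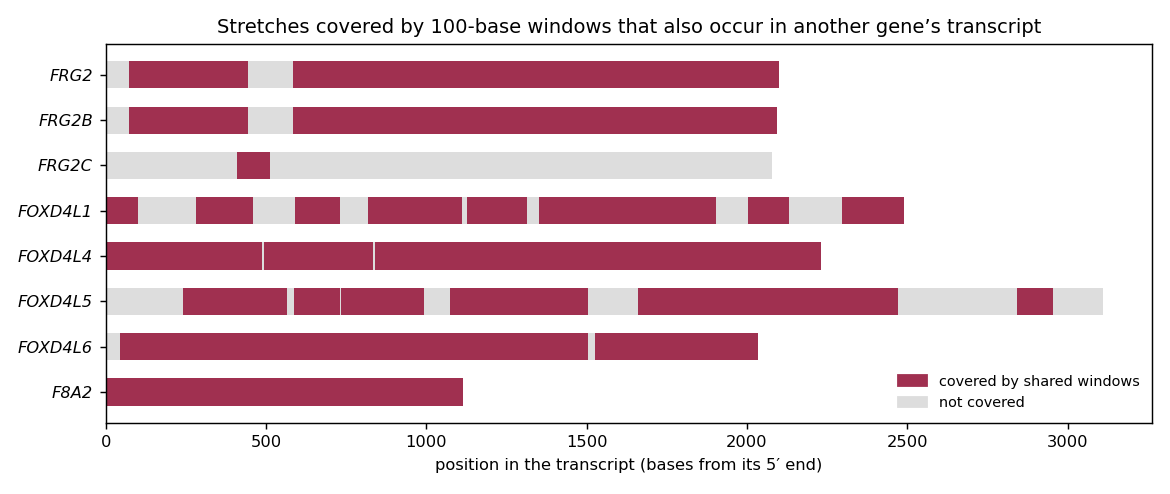
Map of the longest coding transcript of each member, in bases from its 5′ end, with the stretches covered by 100-base windows that also occur in a transcript of another gene in red and the rest in grey. F8A2 is covered throughout, and FRG2C has 1 short covered stretch. FRG2 and FRG2B are covered almost throughout, except at their 5′ ends and in a longer gap just before base 585.

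The even spacing of low CPM values (counts per 1000000 reads, the unit of the tables) implied 17071000 to 21220500 reads in a library, and 1 read was worth 0.0471 to 0.0586 CPM. All read counts and counting intervals below are implied by this spacing, and are less certain for the control ASO libraries. The group means of 1112 of the 1113 entries lay 2-fold or more apart, entries at 0 in 1 group included, and the remaining entry had 1.99-fold. The tables therefore appear to hold entries already selected for a difference between these libraries, and a change in a listed gene is not independent evidence. Neither RUNX1-IT1 nor RUNX1 is among the listed genes, so the knockdown itself is not analysed here. Of 11 ovarian or epithelial markers only PAX8 was listed, at 6.55 to 7.97 CPM in control ASO and 2.31 to 3.48 CPM in RUNX1-IT1 ASO libraries. Of 4 leukocyte markers only ITGAM was listed, at 1.62 to 1.84 CPM in control ASO and 0.059 to 0.214 CPM in RUNX1-IT1 ASO libraries. Its RUNX1-IT1 ASO libraries thus all lay below its control ASO libraries, as in 95.7% of named entries. Whether ITGAM has a part in the changes of the members was not tested. None of the 4 fibroblast and 3 endothelial markers was listed, and the cell type could not be checked further.

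All 3 FRG2 copies were near the limit of detection in the RUNX1-IT1 ASO libraries and well above it in the control ASO libraries. In bulk RNA, fewer cells that express a gene and less RNA per cell cannot be told apart, which holds for all values here. FRG2, the copy next to the D4Z4 array, stood at 3.29, 2.20 and 1.74 CPM in control ASO replicates 1, 2 and 3, and the RUNX1-IT1 ASO replicates held 0, 0.108 and 0 CPM in the same order. Every RUNX1-IT1 ASO library lay below every control ASO library, as in 95.7% of named entries, and the RUNX1-IT1 ASO values amount to 2 reads in all, against 141 reads in the control ASO libraries. The rate of reads was 65.5 times higher in the control ASO libraries, with an exact 95% interval from counting error alone of 17.8 to 546.

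FRG2B, the copy on chromosome 10, stood at 2.39, 2.84 and 4.29 CPM in control ASO replicates 1, 2 and 3 and at 0.214, 0.108 and 0 CPM under the RUNX1-IT1 ASO. All RUNX1-IT1 ASO libraries again lay below all control ASO libraries, as in 95.7% of named entries, with 6 reads against 188. The ratio of read rates was 29.1, with a counting interval of 13.1 to 80.3. FRG2C, the copy on chromosome 3 that shares the fewest windows, stood at 1.64, 1.62 and 1.602 CPM in control ASO libraries. In RUNX1-IT1 ASO libraries it was at 0, 0.054 and 0.117 CPM, or 3 reads in all against 95. Its ratio of 29.4 had a counting interval of 9.76 to 145. FRG2C shares 0.202% of its 100-base windows with other genes and 13.6% of its 50-base windows within the family. Read length and aligner are not given, and whether reads of the other copies added to its values was not tested. A count of 0 allows up to 3 reads, which in the RUNX1-IT1 ASO libraries is 0.160 to 0.176 CPM.

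**Figure D2:**
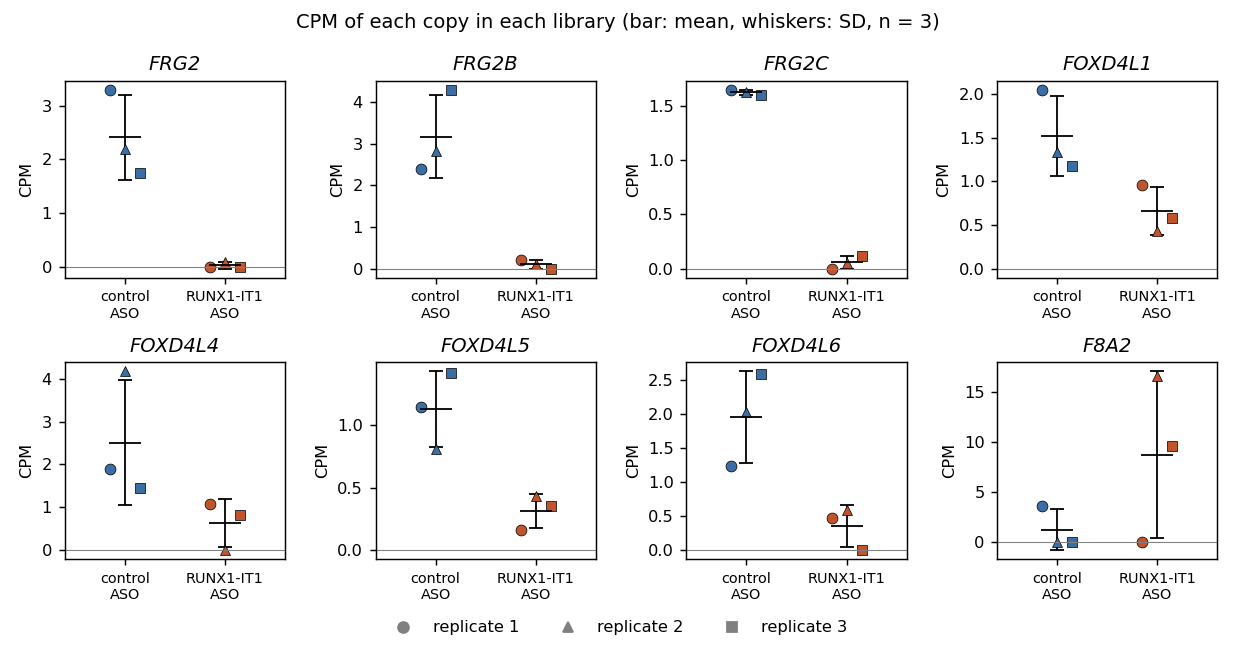
CPM of each copy in each library, with control ASO in blue and RUNX1-IT1 ASO in orange, 1 marker shape per replicate, and horizontal bars and whiskers for the mean and SD (n = 3). The 3 FRG2 copies sit at or near 0 in every RUNX1-IT1 ASO library, and F8A2 is at 0 in 3 of the 6 libraries. The FOXD4L copies fall without overlap, as do 95.7% of named entries.

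The split between FRG2 and FRG2B varied more than their sum. The control ASO library with the highest FRG2 value, replicate 1, had the lowest FRG2B value, and replicate 3, with the lowest FRG2 value, had the highest FRG2B value. FRG2 made up 44.9, 33.0 and 22.9% of the family sum in control ASO replicates 1, 2 and 3, FRG2B 32.7, 42.6 and 56.2%, and FRG2C 22.5, 24.4 and 21.0%. The coefficient of variation between control ASO libraries was 32.9% for FRG2 and 31.3% for FRG2B, where counting error alone gives 15.0 and 13.1%. For FRG2 and FRG2B added together it was 9.04%, against 9.64% from counting. FRG2C alone had 1.30%, less than its counting error of 17.8%. Over the 669 entries with a control mean of 1 to 5 CPM, the median coefficient of variation was 16.3% and the quartiles were 10.3 and 25.6%. The sum of FRG2 and FRG2B was added after their values were seen.

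The family sum of the FRG2 copies was 7.32, 6.66 and 7.63 CPM over control ASO replicates 1, 2 and 3, against 0.214, 0.270 and 0.117 CPM over the RUNX1-IT1 ASO replicates. The mean went from 7.21 ± 0.499 to 0.200 ± 0.0774 CPM (SD, n = 3 each), 36.0-fold lower. The RUNX1-IT1 ASO libraries held 11 reads of the family in all, against 424 in the control ASO libraries, a ratio of 35.8 with a counting interval of 19.8 to 72.2. Leaving out 1 library at a time kept the fold between 29.8 and 43.5. Of the 771 named entries 6 had a larger ratio of group means than this sum, and the median ratio over them was 3.25, with quartiles of 2.45 and 5.13.

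The 4 FOXD4L copies fell too, but by about as much as the typical listed entry. FOXD4L1, the chromosome 2 copy, stood at 2.04, 1.33 and 1.18 CPM in control ASO libraries and at 0.963, 0.430 and 0.586 CPM in RUNX1-IT1 ASO libraries. These ranges came close without overlapping, and the ratio of means was 2.30, smaller than that of 634 of the 771 named entries. FOXD4L4 stood at 1.89, 4.17 and 1.46 CPM against 1.07, 0 and 0.820 CPM, with a ratio of 3.98. Its 72 reads in control ASO replicate 2 and 0 reads in RUNX1-IT1 ASO replicate 2 were the extremes of both groups.

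FOXD4L5 stood at 1.15, 0.811 and 1.41 CPM in control ASO replicates 1, 2 and 3 and, under the RUNX1-IT1 ASO, at 0.160, 0.430 and 0.351 CPM, with a ratio of 3.58. FOXD4L6 stood at 1.25, 2.03 and 2.59 CPM against 0.481, 0.591 and 0 CPM, with a ratio of 5.47. For both, every RUNX1-IT1 ASO library lay below every control ASO library, as in 95.7% of named entries. The copy without reads was not the same in each RUNX1-IT1 ASO library. FOXD4L4 had no read in RUNX1-IT1 ASO replicate 2 and 20 and 14 in replicates 1 and 3, whereas FOXD4L6 had none in replicate 3 and 9 and 11 in replicates 1 and 2.

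Summed over the 4 copies, FOXD4L expression was 6.33, 8.34 and 6.65 CPM in control ASO replicates 1, 2 and 3 and 2.67, 1.45 and 1.76 CPM under the RUNX1-IT1 ASO. The mean fell 3.62-fold, from 7.10 ± 1.08 to 1.96 ± 0.636 CPM (SD, n = 3 each). The read counts behind it were 412 and 107, a ratio of 3.57 with a counting interval of 2.88 to 4.46. Single copies varied between control ASO libraries by 26.9 to 58.0% (coefficient of variation), with FOXD4L4 the highest, and their sum by 15.2%, against 8.54% from counting. FOXD4L4, FOXD4L5 and FOXD4L6 added together, without FOXD4L1, varied by 24.4%, against 9.72% from counting. FOXD4L4 made up 29.9, 49.99 and 22.0% of the sum in control ASO replicates 1, 2 and 3. FOXD4L3 and FOXD4, which share sequence with these copies, are not in the sum because neither is a listed gene. The FRG2 and FOXD4L sums had nearly equal control means, and the difference between their folds was not tested.

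**Figure D3:**
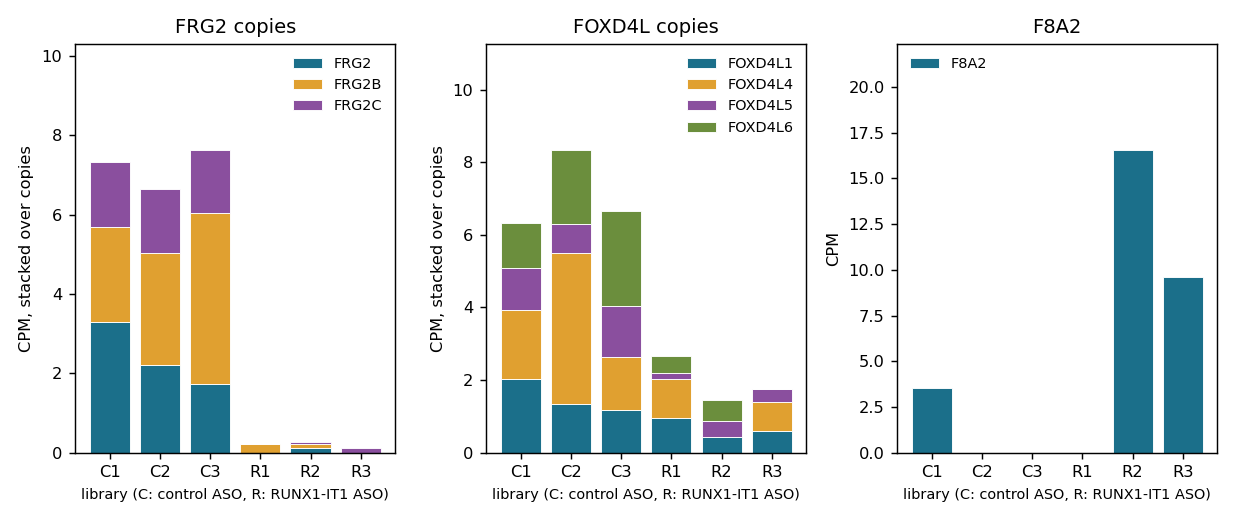
CPM in each library, stacked over the 3 FRG2 copies, over the 4 FOXD4L copies, and for F8A2 (C, control ASO and R, RUNX1-IT1 ASO, with replicate numbers). The FRG2 sum stays between 6.66 and 7.63 CPM in the control ASO libraries while its split changes, and F8A2 reaches 16.6 CPM in 1 library and 0 in another of the same group.

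F8A2 followed neither pattern. It was listed at 3.54, 0 and 0 CPM in control ASO replicates 1, 2 and 3, while RUNX1-IT1 ASO replicates 1, 2 and 3 were at 0, 16.6 and 9.61 CPM. Both groups held libraries at 0, and the others held 71, 308 and 164 reads, so the gaps within groups were far beyond counting error. The groups overlapped. The means were 1.18 ± 2.04 and 8.72 ± 8.32 CPM (SD, n = 3 each), and an exact two-sided permutation test of their difference gave p = 0.4, where 0.1 is the smallest value that 3 libraries against 3 allow. F8A2 was the 1 entry of 1113 that in both groups stood at 0 in some libraries and at 1 CPM or more in others. All of its sequence is shared with F8A1 and F8A3, whose values are not analysed here, so a family sum for F8A could not be formed and the share of reads given to each copy is unknown.

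In limma (on log2(CPM + 1), with Benjamini-Hochberg adjustment over all 489 named genes averaging 1 CPM or more), 97.5% of genes were called lower under the RUNX1-IT1 ASO and 2.04% higher at an adjusted p under 0.05. Of the 8 members 6 passed the filter on low values and 5 of these were called lower, a share that says nothing beyond that background. FRG2B fell by 1.89 ± 0.16 on the log2 scale (SE, limma adjusted p = 1.48e-07) and FRG2 fell by 1.70 ± 0.16 (limma adjusted p = 2.95e-07). The median over the 489 genes was -1.11 and the 5th percentile was -2.12. FOXD4L6 fell by 1.12 ± 0.20, FOXD4L4 by 1.10 ± 0.28 and FOXD4L1 by 0.60 ± 0.16, with limma adjusted p = 0.000104, 0.00207 and 0.00271. F8A2 had a change of 1.79 ± 0.83 and was not called (limma adjusted p = 0.0521), 1 of 2 tested genes for which this was so. The log2(CPM + 1) scale understates the change of genes this low. Nearly all entries had group means 2-fold or more apart, or stood at 0 in 1 group, before any test. The limma p-values here and below therefore only describe the listed values, and add no evidence that a single gene changed.

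FRG2C and FOXD4L5 had means of 0.840 and 0.719 CPM over the 6 libraries and were too low for that filter. With no filter, where 97.3% of 771 genes were called lower and 2.46% higher, all 7 FRG2 and FOXD4L copies were called lower. FRG2C then fell by 1.31 ± 0.13 (limma adjusted p = 1.97e-07) and FOXD4L5 by 0.69 ± 0.15 (limma adjusted p = 0.000469). In that fit F8A2 was called higher (limma adjusted p = 0.0352), so its call turned on the filter. Its call also rested on single libraries, with adjusted p = 0.000627 without control ASO replicate 1, 0.000427 without RUNX1-IT1 ASO replicate 1 and 0.221 without RUNX1-IT1 ASO replicate 2. Separation of the groups was as common as the calls: 95.7% of named entries had every RUNX1-IT1 ASO library below every control ASO library, and 7 of the 8 members did.

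Scaling mattered for the FOXD4L copies. Setting the summed CPM of the listed entries equal in every library, a rescaling, moved the log2 ratios of the family sums up by 1.503 and 1.51. Of the 1113 entries 1081 had a lower mean under the RUNX1-IT1 ASO, so this rescaling takes out their common fall by construction. The median log2 change over the 489 tested genes went from -1.11 to -0.060. Rescaled values therefore place the copies among the listed entries and cannot decide whether the copies fell. The FRG2 family sum was still 12.6-fold lower after rescaling, and FRG2 (-1.29) and FRG2B (-1.37) were still called lower by limma. The FOXD4L sum was 1.28-fold lower, FOXD4L4 (-0.38) and FOXD4L6 (-0.51) were not called, and FOXD4L1 turned to 0.15. FRG2C and FOXD4L5, too low for the filter, were not tested singly after rescaling.

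**Figure D4:**
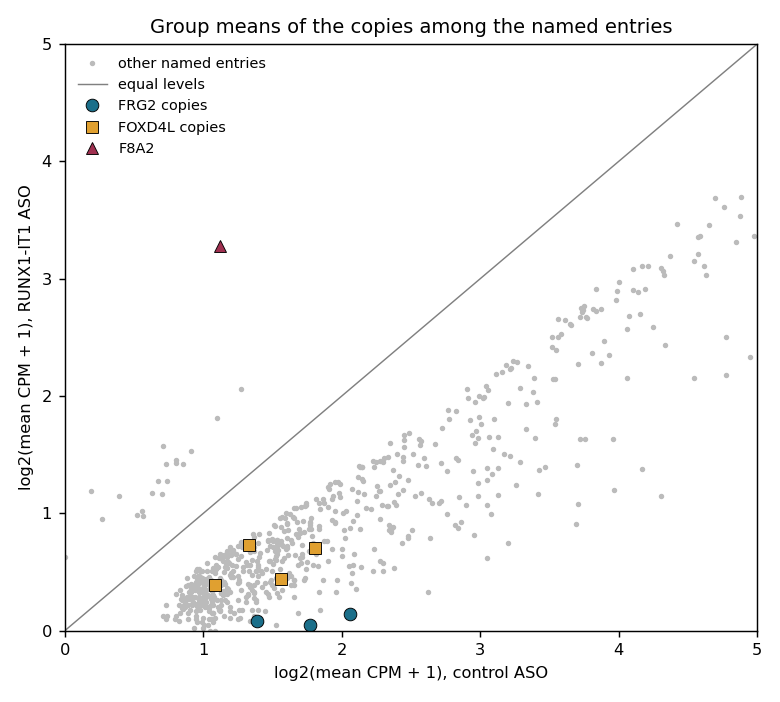
Mean level in RUNX1-IT1 ASO against control ASO libraries on the log2(mean CPM + 1) scale, with the FRG2 copies, FOXD4L copies and F8A2 marked among 699 other named entries in grey (64 lie beyond the axes) and a line of equal levels. The FRG2 copies lie along the bottom of the cloud, the FOXD4L copies within it, and F8A2 above the line.

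Per kilobase of transcript, the control ASO level was 1.52 ± 0.474 CPM for FRG2B, 1.15 ± 0.378 for FRG2, 1.13 ± 0.652 for FOXD4L4, 1.06 ± 1.83 for F8A2, 0.961 ± 0.332 for FOXD4L6, 0.781 ± 0.0101 for FRG2C, 0.609 ± 0.185 for FOXD4L1 and 0.361 ± 0.0972 for FOXD4L5 (SD, n = 3). Each gene's libraries overlapped those of the next in this order, except that FOXD4L1 lay above FOXD4L5 in all control ASO libraries. Copies further apart in the order did not always overlap: FRG2B and FRG2 lay above FRG2C and FOXD4L1 in every control ASO library, and FRG2, FRG2B, FRG2C, FOXD4L4 and FOXD4L6 all lay above FOXD4L5. The lengths used include stretches shared between copies, and the treatment of reads with several matches is not given. The order therefore describes the listed values, and true levels of the copies cannot be ranked from it.

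The window around the transcription start, from 250 bases before it to 50 after it in RefSeq on GRCh38.p14, was found for all 8 members. It is shown for FRG2 and FRG2C, which lie on different chromosomes, and whether it has a part in their fall was not tested. FRG2B had the same bases as FRG2 over 299 aligned positions, and FRG2C differed from FRG2 at 10 of 300. Capitals mark TATAAA, the core of the TATA box, which begins 29 bases before the start in both.
FRG2 (minus strand, chr4:190027207-190027506): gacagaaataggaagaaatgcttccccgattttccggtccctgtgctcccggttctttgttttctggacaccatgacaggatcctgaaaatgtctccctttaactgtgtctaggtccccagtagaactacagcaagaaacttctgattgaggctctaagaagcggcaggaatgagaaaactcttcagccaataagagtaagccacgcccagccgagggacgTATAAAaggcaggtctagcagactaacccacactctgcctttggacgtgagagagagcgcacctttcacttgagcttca
FRG2C (plus strand, chr3:75664078-75664377): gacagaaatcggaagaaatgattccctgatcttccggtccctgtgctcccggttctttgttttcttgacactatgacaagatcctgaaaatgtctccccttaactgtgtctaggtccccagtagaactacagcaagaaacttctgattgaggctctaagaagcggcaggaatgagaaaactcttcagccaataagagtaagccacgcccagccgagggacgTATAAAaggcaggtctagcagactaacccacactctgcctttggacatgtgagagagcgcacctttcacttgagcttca

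Motifs were searched on both strands of these windows, with overlaps allowed. TATAAA was in all 3 FRG2 windows and in those of FOXD4L4 and FOXD4L5, against 11.5% of 35116 windows of this length. The RUNX core TGTGGT was in the windows of FOXD4L4 and FOXD4L5 (13.1% of all windows), the AP-1 motif TGANTCA in that of FOXD4L1 (7.71%) and the GC box GGGCGG in those of FOXD4L4 and F8A2 (45.0%). A spaced homeobox pair, close to the DUX4 motif, was in none of the 8 windows and in 0.316% of all. F8A2 and F8A3 had the same 300 bases, and F8A1 differed from them at 1 position. The RefSeq starts of the FOXD4L copies fall at different points of the shared sequence, so their windows do not line up. A match is only a run of letters and shows no binding.

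Of the rest of these families little was listed. The FRG list had 3 of 16 genes listed and the FOXD list 4 of 10, all of them members, and the F8A list 1 of 3. A list of DUX4 and genes it is known to activate, which leaves out the FRG2 copies, had 2 of 47 genes listed. Both fell by limma, against 97.5% of tested genes. ZNF280A, a zinc finger gene, went from 10.7 ± 0.465 to 2.38 ± 0.412 CPM (SD, n = 3), and RFPL4A, a ret finger protein-like gene active in early embryos, from 5.17 ± 0.268 to 0.259 ± 0.0405 CPM, 20.0-fold lower. DUX4 itself is not among the listed genes. Of 42 neighbours of the duplicated blocks 2 were listed, PAX8 and the antisense gene PAX8-AS1, both within 1000000 bases of FOXD4L1, and both fell, 2.40-fold and 7.40-fold. IL1A, named after the tables were seen, was the other listed gene found in that interval. No listed gene was found by symbol within 1000000 bases of FRG2, FRG2B, FRG2C, FOXD4L6 or F8A2. Entries without a symbol, or with one that the annotation does not use, could not be placed.

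Other recent duplicates had 13 of 144 genes listed, and 7 of the 8 tested were called lower, against 97.5% of all tested genes. The exception was HIST2H4B, 1 of a pair of histone H4 genes, which stood at 0 in 1 control ASO library. HIST2H4B was at 0, 16.6 and 6.64 CPM and HIST2H4A at 21.8, 2.43 and 13.4 CPM in control ASO replicates 1, 2 and 3. Their sum, formed after the values were seen, was 21.8, 19.1 and 20.03 CPM there and 2.84, 3.60 and 3.57 CPM in the RUNX1-IT1 ASO replicates. The coefficient of variation in control ASO libraries was 77.5% for HIST2H4A, 108% for HIST2H4B and 6.93% for the sum, the same contrast between copies and sum as for FRG2 with FRG2B. The contrast was not general: FOXD4L4, FOXD4L5 and FOXD4L6 added together still varied by 24.4%, close to the 26.9% of FOXD4L5 alone. HIST2H2AA3, a histone H2A gene with a near-identical copy, fell 3.13-fold.

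Over the 6 libraries, the named genes whose log2(CPM + 1) values ran most like the FRG2 sum were RPLP0P2, a ribosomal protein pseudogene (Pearson's r = 0.999), PLK2, a polo-like kinase gene (0.999), and RASAL2-AS1, an antisense gene (0.999). For the FOXD4L sum they were MMP25, a matrix metalloproteinase gene (0.995), MIR7855 (0.993) and SLFN13, a Schlafen family RNA nuclease gene (0.993). For F8A2 the highest values were lower, at 0.803 for FBLN7, a fibulin gene, 0.710 for RGCC and 0.595 for ZIC4, a zinc finger factor. The genes share libraries and nearly all differ between the groups, so these values are a description of likeness over 6 points that fall into 2 groups.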

How the data were processed

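The tables deposited by the authors hold CPM, counts per 1000000 reads, for 1113 entries in each of 6 libraries, a unit read from the values. Per the submitters' processing notes, reads were handled with FastQC 0.11.9 and fastp 0.22.0 on GRCh38. The aligner, counter, annotation and filters are not given in the sources used here. Low values were whole multiples of 1 read's worth of CPM (100% of values up to 320 reads within 0.1 read), but the smallest values in control ASO libraries lay at 2, 5 and 2 reads. The read totals there are thus less certain and no count test was run. The read counts and intervals given above rest on these totals. Entries summed to 1.02 to 1.11% of the control ASO libraries and 0.363 to 0.389% of the RUNX1-IT1 ASO libraries. Entries without a symbol (342) stayed out of the tests. Chi-square per degree of freedom between replicates was 1.97 to 2.79, so none agreed within sampling noise.

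Named genes averaging 1 CPM or more were compared between groups with limma 3.58.1 (R 4.3.3), using values of log2(CPM + 1), an intensity-dependent prior variance and no covariate. The code was tested on simulated data. Family sums, having been chosen with results known, got no test. Intervals of read ratios are exact conditional binomial intervals and, like floors of 3 reads, cover counting error only. Transcripts were compared with Biopython 1.88. The coding start of F8A2 is not reported here. All 8 members, every listed copy of their families, up to 3 genes of each other list by mean CPM, and 3 genes most like each sum are named. Members and lists were chosen with earlier results of these data known. Alternatives were the pseudocount, the filter, entries without a symbol, rescaling, a replicate block and leaving out each library.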

Additional observations from a re-analysis of the deposited data

How the results depend on the processing

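The planned edgeR and DESeq2 fits were not run, since whole reads were not taken as recovered in the control ASO libraries. The FRG2 family sum (log2 ratio -5.17) moved to -3.66 and the FOXD4L family sum (-1.86) to -0.35 after rescaling to equal listed totals, which centres a table that nearly all fell. Rescaling also left 118 genes called lower, 43 higher and 2 members lower, against 477, 10 and 5, and turned FOXD4L1 to 0.15 (limma adjusted p = 0.577). Leaving out 1 library kept the FRG2 sum between -5.44 and -4.90 and the FOXD4L sum between -2.15 and -1.68. F8A2 ranged from 0.98 to 3.04 in the same fits, against 1.79 with all libraries. It was called higher at 1.79 with no filter (limma adjusted p = 0.0352), with genes averaging 0.5 CPM or more (0.0366) and with entries without a symbol kept (0.0497), and not with a pseudocount of 0.1 (2.93, adjusted p = 0.113). Genes called lower and higher were 750 and 19 with no filter and 729 and 18 among genes averaging 0.5 CPM or more, where more genes were tested, and 20 were higher with entries without a symbol kept. With the replicate number as a block, 478 genes were lower and 10 higher, 5 members were lower, F8A2 stayed uncalled (limma adjusted p = 0.067) and the sums were -5.25 and -1.90. The deviations of the same-numbered libraries correlated at -0.241, -0.102 and -0.021, and no library correlated best with its own number. With so few libraries in each group, this cannot decide whether they share more than a number. Depth limits the FRG2 fold, since 11 reads stand behind its RUNX1-IT1 ASO values.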
